A study of Mus musculus with 2 samples.

Results

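The cells described here were Apoe-high C1q macrophages (MØs) of perigonadal visceral adipose tissue (VAT), 875 of the 8417 cells kept from 2 single-cell libraries. They were selected on measured values. A member had Apoe at 1.2% or more of its transcripts, counted as unique molecular identifiers (UMIs), and C1qa, C1qb and C1qc together at 0.2% or more. It had Gpnmb, Mmp12 and Atp6v0d2 together under 0.08%, Fcgr4 under 0.2%, at most 2 UMIs of Lyve1, Cbr2 and Fcna, and at most 2 of the cell-cycle genes Top2a, Mki67, Birc5, Cdk1 and Ube2c. The CR library gave 124 members of 3015 kept cells, and the obese library gave 751 of 5402. Both libraries came from viable CD45+ cells sorted from male C57BL/6J mice that were bought at 6 weeks of age and acclimated for 2 weeks. All mice, those of the obese library included, ate a diet with 60% of calories from fat and 0.3% cholesterol for 24 weeks, and received weekly injections of an antisense oligonucleotide that lowers the LDL receptor (5 mg/kg). The CR mice were then fed 70% of their ad libitum intake of that diet for 2 weeks. A label on the CR library names a life-long restriction in its place. The number of mice behind each library is not given in the sources used here. With 1 library in each group there was no replicate, so no test was made, and each 95% interval covers counting error only.

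Macrophages of fat tissue clear dying adipocytes, take up and release lipid, and present antigen. Apolipoprotein E carries cholesterol out of the cell and into the circulation, and C1q, the opening component of the classical complement cascade, also tags dying cells for uptake. Lipid-associated MØs, which gather around dying adipocytes in obesity, are known for Trem2, Cd9, Gpnmb and Spp1. Lyve1-bearing MØs lie along vessels, and monocyte-derived cells bring Ccr2 and Plac8 into the tissue.

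The CR library held 19696476 UMIs in 3562 barcodes and the obese library 42948242 UMIs in 5795 barcodes. Barcodes with under 200 genes or with more than 6% of mitochondrial UMIs were left out, which kept 84.6% of CR and 93.2% of obese barcodes. The libraries shared 28 barcode sequences, none of which (0) belonged to a member. Members had a median of 6449.5 UMIs and 1966 genes in CR and 6867 UMIs and 1930 genes in obese.

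The 4 genes that name these cells were found in nearly every member. None (0) of them was 2-fold higher in members than in lipid-associated or Lyve1-bearing MØs in both libraries, as given below. Apoe was selected on and was present in 100% of members of both libraries. Sepp1, which encodes the selenium carrier selenoprotein P, had UMIs in 99.2% of CR and 99.3% of obese members. Trf, which encodes the iron carrier transferrin, had them in 91.9% and 96.8%, and Ms4a7, a membrane protein of the MS4A family, in 87.9% and 90.4%. The general MØ genes Csf1r (520.4 CPM in CR and 566 CPM in obese), Adgre1 (879.6 and 745 CPM) and Cd68 (875 and 981 CPM) were also present. Levels in CPM are UMIs summed over the cells of a set and scaled to the same total in every set. At 2000 UMIs a cell, to which every cell was thinned at random, Trf was found in 74.4% of CR and 83.2% of obese members, against 8.27% of CR and 5.47% of obese T cells. The class is labelled as being without lipid-associated genes. For Gpnmb, Mmp12 and Atp6v0d2 the limit itself fixed this, while other genes of lipid-associated MØs were present. Trem2, a lipid receptor, had UMIs in 79.0% of CR and 81.6% of obese members, and Lpl, lipoprotein lipase, stood at 1119 CPM in CR and 1288 CPM in obese.

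No empty range of Apoe separated members from the cells below the limit. Among cells that met every other limit, the Apoe share ran on through 1.2%, and members reached from there to 9.21% in CR (median 2.83%) and to 14.8% in obese (median 2.69%). In the obese library the 58 cells just inside the limit, at 1.2% to 1.4%, had 3027 CPM of Sepp1, 754 CPM of Trf and 833 CPM of Ms4a7. The 79 cells just outside, at 1.0% to 1.2%, had 2925, 687 and 790.3 CPM of the same genes. In the CR library the matching bins held 12 and 11 cells, with Sepp1 at 2089 CPM inside and 1558 CPM outside. The ends of the Apoe range differed more. In obese members, Sepp1 was at 6894 CPM and Trf at 1675 CPM where Apoe was above 4%, the highest of the 6 member bins for both. In CR members both were highest at 3% to 4% of Apoe, with Sepp1 at 6049 CPM and Trf at 1448 CPM, and stood at 5601 and 1125 CPM above 4%. Ccr2, the receptor by which monocytes enter tissue, ran the other way. In obese members it was at 53.8 CPM above 4% of Apoe and at 207 CPM in the bin next to the limit. The same ends differed in CR, with Ccr2 at 94.6 CPM above 4% of Apoe and at 206 CPM next to the limit. Its highest CR member bin was 1.4% to 1.6%, at 299 CPM.

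**Figure D1:**
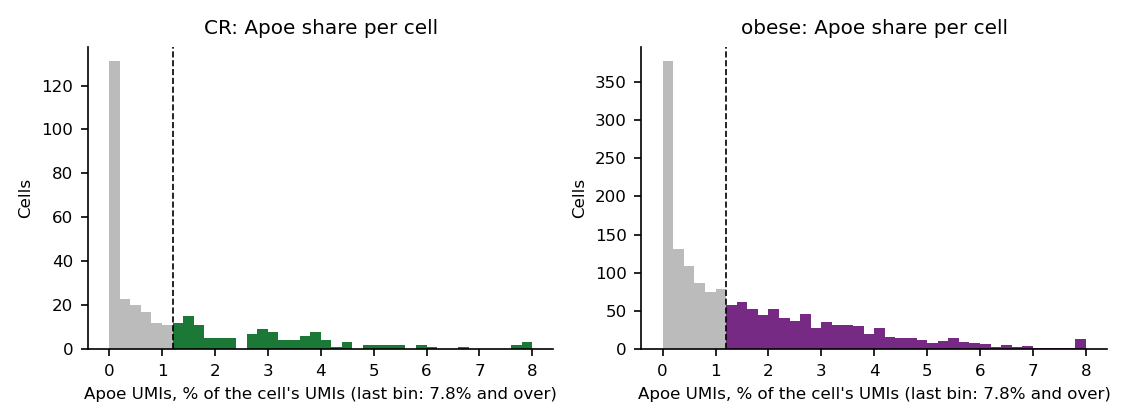
Histogram of the Apoe share per cell (x axis, percent of the cell's UMIs in bins of 0.2, the last bin open) for cells that met every other limit, with the number of cells on the y axis, CR left and obese right. Grey bars are cells under the limit of 1.2% (dashed line) and coloured bars are members, and no bin next to the limit is empty in either library.

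Cells that met the other limits but had Apoe under 1.2% (214 in CR and 857 in obese) are called Apoe-lower C1q MØs and are the nearest comparison by the limits. They were a mixed set that differed between the libraries. Apoe was under 0.2% in 131 of them in CR and in 377 in obese. At least 2 UMIs of B cell markers were found in 26.2% of them in CR and 10.0% in obese, against 4.84% and 4.79% of members. The members were cut from the same cells by Apoe, so this is a description without a test. Of 2368 genes measured well enough in both libraries (at least 20 UMIs over the sets compared and 50 CPM in one of them), 20 (0.845%) were at least 2-fold higher in members in both libraries and 14 (0.591%) at least 2-fold lower. Every ratio given is on the log2 scale, after adding 5 CPM to both levels. Genes of carriers and of tissue MØs were among the higher. Sepp1 was at 4191 CPM in CR members and 645 CPM in CR Apoe-lower cells (log2 ratio 2.69), and at 5092 and 1333 CPM in the matching obese cells (1.93). Trf had ratios of 2.29 in CR and 1.78 in obese. Folr2, a folate receptor of resident MØs, was at 351 against 73.9 CPM in CR and at 370.5 against 127 CPM in obese. Gas6, which bridges dying cells to the receptors Axl and Mertk, was at 121 against 26.9 CPM in CR and at 113 against 31.4 CPM in obese. The cholesterol exporter Abca1 (ratios of 1.44 and 1.12), the scavenger receptor Stab1 (1.66 and 1.22) and the chemokine Ccl8 (1.46 and 1.82) were also among the 20.

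Genes of monocytes and their recent progeny were among the 14 lower in members, beside haemoglobin genes, the plasma cell gene Jchain and others. Ear2, a ribonuclease of the eosinophil-associated family, was at 31.1 against 436 CPM in CR and at 55.5 against 329.5 CPM in obese (ratios of -3.61 and -2.47). Plac8 had ratios of -1.80 and -1.60 and Cd300e, an activating receptor of monocytes, -2.64 and -1.88. Retnla, a secreted protein of alternatively activated MØs, was lower in members than in Apoe-lower cells as well (-1.46 in CR and -1.09 in obese). MHC class II stood higher in members. Thinned to 2000 UMIs, a CR member had a median of 123 UMIs over the listed MHC class II genes against 32 in a CR Apoe-lower cell, and an obese member 167 against 125.

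**Figure D2:**
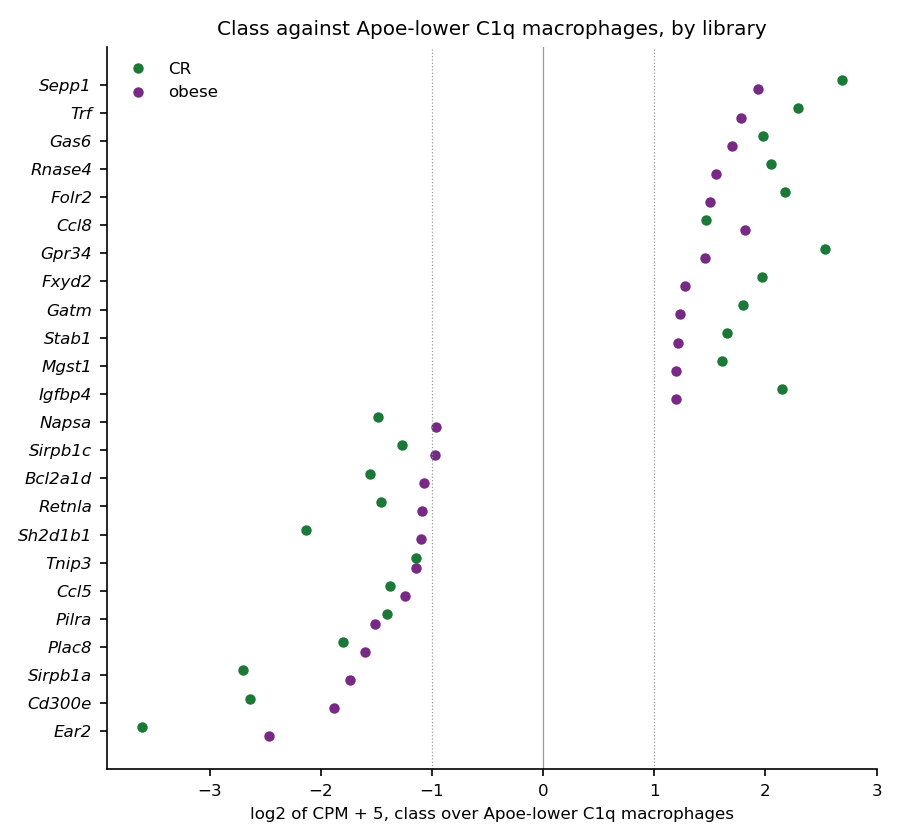
Log2 ratio (x axis, 5 CPM added) of members over Apoe-lower C1q MØs in the CR and the obese library for the 12 genes highest and the 12 lowest by the smaller ratio, Apoe left out because the limit fixed it. Dotted lines mark 2-fold; Sepp1 and Trf stand highest and Ear2 lowest.

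Against lipid-associated MØs, which met the Apoe and C1q limits and had Gpnmb, Mmp12 and Atp6v0d2 at 0.08% or more (36 cells in CR and 158 in obese), 48 of 2334 genes (2.06%) were at least 2-fold higher in members in both libraries and 45 (1.93%) at least 2-fold lower. The lower ones held the 3 genes of the limit and 11 of a further 18 genes listed for lipid-associated MØs. Lgals3, a galectin, was at 2551 CPM in members and 8627 CPM in lipid-associated MØs of CR, and at 2876 and 9912 CPM in those of obese. Trem2 was at 665 and 1574 CPM in CR and at 689 and 1752 CPM in obese. Several chemokines and Il1b were higher in members. Ccl2, which draws monocytes, was at 406 against 19.8 CPM in CR and 234 against 33.9 CPM in obese. Il1b was at 189 against 11.3 CPM in CR and at 104 against 22.97 CPM in obese. Of 13 chemokines measured, 6 were at least 2-fold higher in members in both libraries. Of 9 cytokines and growth factors 1 was, Il1b, and the list medians were -0.18 in CR and -0.40 in obese.

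Against MØs with more than 2 UMIs of Lyve1, Cbr2 and Fcna and otherwise within the limits (42 cells in CR and 207 in obese), only 5 of 2341 genes (0.214%) were at least 2-fold higher in members in both libraries, while 41 (1.75%) were at least 2-fold lower. The 5 higher genes were Cd52, Glipr1, Lpl, Cadm1 and Sirpb1c. The set is called Lyve1-bearing for short, although its limit did not require a Lyve1 UMI in each cell. It held 50 Lyve1 and 185 Cbr2 UMIs in CR, and 323 and 1373 in obese. Lpl was at 1119 against 312 CPM in CR and at 1288 against 509.9 CPM in obese. Of the 4 genes that name the class, 0 were at least 2-fold higher in both libraries against this set or against lipid-associated MØs. Summed, the 4 stood in CR at 36694 CPM in members, 39398 CPM in lipid-associated MØs and 31015 CPM in this set. The obese values were 38052, 35460 and 32504 CPM in that order. Apoe was selected on in all of these sets. Among the 41 lower genes were 12 of 16 measured tissue-resident genes that the limit had not used, and 6 of 14 chemokines. Ccl2, higher in members than in lipid-associated MØs, was lower here, at 406 against 1289 CPM in CR and 234 against 1432 CPM in obese. The chemokine Ccl8 was at 489 against 4667 CPM in CR and at 257 against 2213 CPM in obese. The tissue-resident gene Gas6 was at 121 against 505 CPM and 113 against 426 CPM. Folr2 was therefore higher in members than in Apoe-lower cells and lower than in Lyve1-bearing cells (928 CPM in CR and 1431 CPM in obese). The lipid-associated and Lyve1-bearing sets of the CR library held under 50 cells each, and these limits were set after the counts had been opened.

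Members made up 4.11% of kept cells in CR (95% interval 3.43 to 4.88) and 13.9% in obese (12.99 to 14.9). Within cells above the C1q limit they made up 11.7% in CR (9.82 to 13.8) and 27.2% in obese (25.6 to 28.9). The same C1q cells held Fcgr4-high MØs, which were 17.5% of kept cells in CR and 3.67% in obese. Shares of one sort add up to the whole, so fewer members and more of other cells cannot be told apart. The mitochondrial limit took more of the CR library as a whole, 14.8% of its barcodes against 5.63% of obese barcodes. Of cells meeting every other limit, 23.9% (39 of 163) stood above it in CR and 4.09% (32 of 783) in obese, and without it the shares were 4.602% in CR and 13.7% in obese. Transcripts of other cells also differed between the libraries. At least 2 UMIs over the listed T, B, NK, fibroblast and endothelial markers were found in 57.3% of CR and 20.4% of obese members, and without these members the shares were 1.76% in CR and 11.1% in obese.

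Most genes were close between CR and obese members. Of 2480 genes compared, 2241 (90.4%) had a log2 ratio of CR over obese within 0.5 of 0, and the median ratio was 0.076. At least 2-fold higher in CR were 32 genes (1.29%), and at least 2-fold lower were 7 (0.282%), which is 82.1% higher among those past the fold. TMM factors, which shifted the median ratio of all genes by -0.16, gave 19 higher and 11 lower (63.3% higher). Leaving aside gene models and haemoglobin genes, 26 were higher and 3 lower. The genes that name the class were within that narrow range. Apoe was at 30529 CPM in CR and 30764 CPM in obese (ratio -0.011), but it was selected on in both libraries and is given as description. Ms4a7 was at 979.7 CPM in CR and 991 CPM in obese (-0.017), and Trf at 995 CPM in CR and 1204 CPM in obese (-0.27). Sepp1, given above, had a ratio of -0.28.

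A few cells held most UMIs of several genes with large ratios. Many of these are therefore given beside their value without the 4% of members highest for that gene (5 cells in CR and 30 in obese). That comparison was added after the values were seen. Of the 32 genes higher in CR, 28 were still at least 2-fold higher, and of the 7 lower ones only 2 were still lower, Retnla and Vcam1. With genes newly past 2-fold, 39 were higher and 7 lower after this step. Arg1, Chil3 and Thbs1 had UMIs in 23, 26 and 28 obese members, fewer than the 30 left out. The step therefore fixed their obese level at 0 and cannot check their ratios, although they are counted among the 28. In CR they were then at 41.4, 8.06 and 26.5 CPM. Ccr1, Igfbp7 and Cd38 had UMIs in 40, 44 and 46 obese members, so the step took out most of those cells. Their ratios rose with it, for Igfbp7 from 1.82 to 2.65, so it is a weak check for genes found in few obese members.

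Retnla had the lowest ratio. Its mRNA stood at 28.8 CPM in CR members (95% interval 18.6 to 42.5) and 949.9 CPM in obese members (924 to 976), a log2 ratio of -4.82. UMIs were present in 11 of 124 CR members and 310 of 751 obese members. Without the highest 4% the levels were 6.91 CPM in CR and 113 CPM in obese (-3.31). The obese value was carried by a minority, with 10 or more UMIs in 36 of 751 members. In T cells, not known as a source of it, Retnla was at 10.9 CPM in CR and 210.1 CPM in obese. Thinned to 2000 UMIs, it was found in 4.13% of CR members (1.36 to 9.38) and 2.76% of CR T cells (1.38 to 4.88), and in 19.6% of obese members (16.8 to 22.6) and 15.2% of obese T cells (12.5 to 18.2). The shares of members and T cells lay closer together than their levels. The part of free RNA in the difference was not tested.

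Retnla was lower in CR in neighbouring MØs too, at 87.7 CPM in CR and 2027 CPM in obese Apoe-lower cells and at 269.7 and 2688 CPM in Lyve1-bearing cells. In lipid-associated MØs it was at 2095 CPM in CR and 413 CPM in obese, where 1 CR cell held 98.0% of its UMIs. Vcam1, an adhesion molecule for integrin-bearing leukocytes, was at 28.8 CPM in CR members (18.6 to 42.5) and 85.0 CPM in obese members (77.4 to 93.2), a log2 ratio of -1.41, and -1.35 without the highest 4%. It had UMIs in 16 CR and 136 obese members, and without a mitochondrial limit its ratio was -0.40. Slpi, a protease inhibitor, was at 25.3 CPM in CR and 246 CPM in obese (-3.05), but 1 obese member held 64.9% of its UMIs, and without the highest 4% it was at 13.8 CPM in CR and 6.10 CPM in obese.

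Spp1, which encodes the secreted phosphoprotein osteopontin, had the highest ratio. It was at 577 CPM in CR members (527 to 629.6) and 46.8 CPM in obese members (41.2 to 52.9), a log2 ratio of 3.49. In CR 5 of 124 cells held 87.6% of its UMIs, and without the highest 4% the levels were 71.4 CPM in CR and 12.8 CPM in obese (2.10). Detection differed less than the level. Thinned, Spp1 was found in 10.7% of CR members and 9.52% of CR T cells, and in 5.06% of obese members and 6.23% of obese T cells. Arg1, which encodes arginase 1, was at 130.1 CPM in CR (107 to 156) and 13.5 CPM in obese (10.6 to 17.0), with UMIs in 14 CR and 23 obese members. At 2000 UMIs it was found in 9.09% of CR members (4.63 to 15.7) and 2.01% of CR T cells, against 1.198% of obese members (0.549 to 2.26) and 0.608% of obese T cells. Of the 121 thinned CR members, 13 had Spp1, 11 had Arg1 and 3 had both.

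The sequences before the transcription starts of Retnla and Spp1 are shown because these genes stood at the ends of the range. They are the 250 bases before the RefSeq start on GRCm38.p6, chr16:48842359-48842608 (+ strand) for Retnla and chr5:104434861-104435110 (+ strand) for Spp1, the first of 2 starts listed. Capitals mark matches, on either strand, to the STAT6 letters TTCNNNNGAA, the C/EBP letters TTGCNNAA and the TATA letters TATAAA. A search for the AP-1 letters TGANTCA matched neither window.
Retnla: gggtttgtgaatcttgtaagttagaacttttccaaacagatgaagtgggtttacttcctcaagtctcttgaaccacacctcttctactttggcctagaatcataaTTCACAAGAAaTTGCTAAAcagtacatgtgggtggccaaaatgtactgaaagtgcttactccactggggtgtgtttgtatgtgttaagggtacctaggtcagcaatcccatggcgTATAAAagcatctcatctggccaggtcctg
Spp1: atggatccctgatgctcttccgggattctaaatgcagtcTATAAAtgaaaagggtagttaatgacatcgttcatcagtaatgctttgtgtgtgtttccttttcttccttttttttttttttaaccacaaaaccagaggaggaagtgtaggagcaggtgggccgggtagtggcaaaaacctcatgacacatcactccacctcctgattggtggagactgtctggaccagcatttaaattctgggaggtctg
The Retnla window held TTCACAAGAA at 145 bases before the start, TTGCTAAA at 134 and TATAAA at 30. The Spp1 window held TATAAA at 211 bases before the start. Among 32851 windows of this length, 5.85% held the STAT6 letters, 9.56% the C/EBP letters, 6.75% the AP-1 letters and 12.4% the TATA letters. A match of letters is a description and not a bound site.

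**Figure D3:**
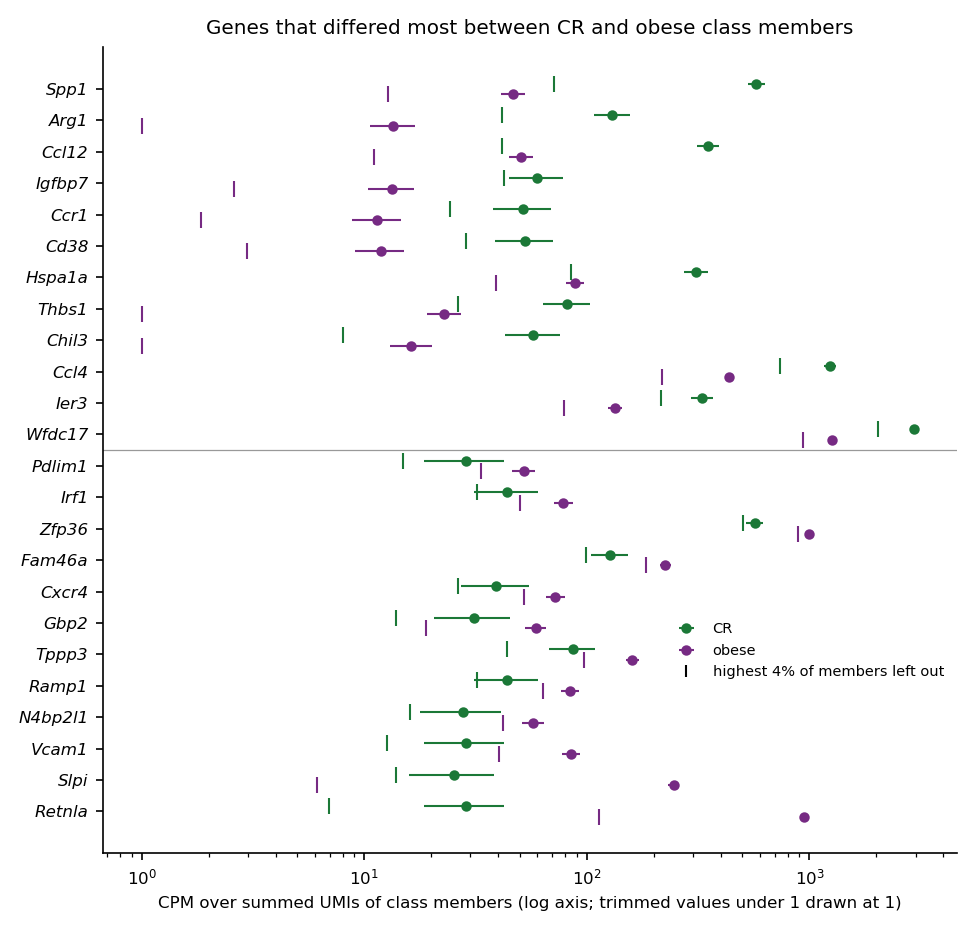
Level in CPM (x axis, log scale) of the 12 genes with the highest and the 12 with the lowest ratio of CR over obese members. Points are summed UMIs with Poisson 95% intervals and ticks are the values without the 4% of members highest for each gene. CR points lie right of obese points for the upper 12 genes, and for Slpi the ticks change sides.

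Chemokines stood higher in CR as a list, with a median ratio of 0.38 over 13 measured genes against 0.076 over all genes. Of the 13, 2 were at least 2-fold higher and 0 lower, beside 1.29% of all genes higher and 0.282% lower. Ccl4, an attractant of T cells and monocytes, was at 1239.9 CPM in CR members (1167 to 1316) and 433 CPM in obese members (416 to 451), a ratio of 1.51. It was spread over many cells, with UMIs in 78 of 124 CR and 358 of 751 obese members, and the ratio without the highest 4% was 1.74. At 2000 UMIs it was found in 48.8% of CR members (39.6 to 58.0) and 27.3% of obese members (24.1 to 30.6). T cells, which make Ccl4 themselves, had it in 24.8% of CR and 28.3% of obese cells. Ccl12, a monocyte attractant, was at 351 CPM in CR and 50.7 CPM in obese (2.68), but 1 CR cell held 72.8% of its UMIs. Without the highest 4% it was at 41.4 CPM in CR and 11.1 CPM in obese (1.53). Ccl7 (0.87), Ccl8 (0.91) and Ccl2 (0.79) were just under 2-fold higher. Ccl6 (-0.20), Ccl9 (-0.31), Cxcl16 (-0.22), Pf4 (-0.12) and Cxcl1 (-0.38) were the 5 with a negative ratio.

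Single genes of inflammation were past 2-fold, while their lists as a whole were not shifted to CR. Cytokines and growth factors had a median ratio of -0.031, with 2 of 9 past 2-fold, and receptors 0.11, with 2 of 14. All 4 were higher in CR, beside 1.29% of all genes higher and 0.282% lower. Wfdc17, a small secreted protein of the whey acidic protein family, was at 2963 CPM in CR members (2849.9 to 3080.1) and 1263 CPM in obese members (1233 to 1293), a ratio of 1.23. It had UMIs in 96.8% of CR and 87.2% of obese members, and the ratio was 1.12 without the highest 4%. Tnf was at 113 CPM in CR (91.6 to 137) and 46.8 CPM in obese (41.2 to 52.9), with UMIs in 33.9% and 20.5% of members. The NAD-consuming ectoenzyme Cd38 was at 53.0 CPM in CR and 11.8 CPM in obese (1.78), and the chemokine receptor Ccr1 at 51.8 CPM in CR and 11.46 CPM in obese (1.79). The fractalkine receptor Cx3cr1 (ratio 1.00), the lectin Clec4e (1.13) and the leukotriene synthase Ltc4s (1.04) reached 2-fold by a narrow margin. Cx3cr1 was past it in 11 of 16 alternatives (lowest 0.76), Ltc4s in 11 of 17 (lowest 0.88) and Clec4e in 13 of 17 (lowest 0.896). The cytokines past 2-fold were Tnf (1.19) and Gdf3 (1.17), and Gdf3 was at 0.75 without the highest 4%. Tnfsf12 (-0.74) and the receptor Cxcr4 (-0.81) were the lowest of their lists. Thbs1, thrombospondin 1, was at 81.7 CPM in CR and 22.9 CPM in obese, with UMIs in 16 CR and 28 obese members. Chil3, a chitinase-like protein of monocytes, was at 57.6 and 16.3 CPM, and 1 CR cell held 70% of its UMIs.

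**Figure D4:**
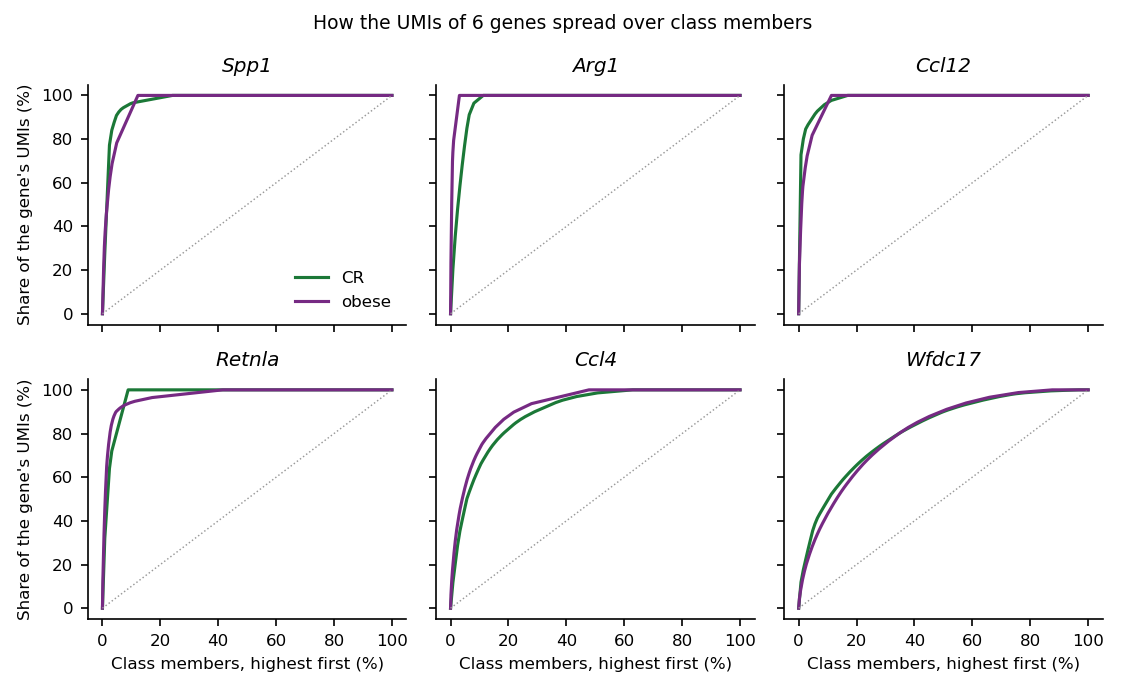
Cumulative share of each gene's UMIs (y axis, percent) over members ordered from the highest (x axis, percent of members) for 6 genes in CR and obese. The dotted line is an even spread, Wfdc17 lies nearest to it, and Spp1, Arg1, Ccl12 and Retnla reach 100% within the first part of the members.

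MHC class II genes were lower in CR by less than 2-fold. The list had a median ratio of -0.37, against a median of 0.076 over all genes. None of its 8 measured genes (0) passed 2-fold, beside 1.29% of all genes higher and 0.282% lower. H2-Eb1 was at 7079 CPM in CR and 10284 CPM in obese (-0.54), H2-Aa had a ratio of -0.45, H2-Ab1 of -0.41, and the invariant chain Cd74 of -0.40 (29049.6 CPM in CR and 38460.3 CPM in obese). The peptide loaders H2-DMa (-0.34) and H2-DMb1 (-0.25) were lower as well, while Ctss (0.16) and Ifi30 (0.11), which process antigens for class II, were closer to 0. Per cell, 2000 UMIs held a median of 123 MHC class II UMIs in CR and 167 in obese members, and 8.26% of CR and 2.796% of obese members had under 20. T cells of the same libraries had medians of 3 in CR and 5 in obese.

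Genes of stress and early response were mixed. Of 23 measured, 2 were past 2-fold, both higher in CR, beside 1.29% of all genes higher and 0.282% lower, and the list median was 0.19. Ier3, an early response gene, was at 329 CPM in CR and 134 CPM in obese (1.26), and at 215 and 79.1 CPM without the highest 4%. The heat shock gene Hspa1a was at 309.7 CPM in CR and 88.4 CPM in obese (1.75), and at 452 CPM in CR and 315 CPM in obese T cells. A single CR member held 43.1% of its UMIs in members. Without the highest 4% Hspa1a was at 85.2 CPM in CR and 39.0 CPM in obese members (1.04). Without members that carried markers of other cells the ratio was 0.29. Zfp36, which destabilises cytokine mRNAs, was at 568 CPM in CR and 992 CPM in obese (-0.80). Hmox1, heme oxygenase 1, had a ratio of 1.01 (448 CPM in CR and 220.4 CPM in obese), but 1 CR cell held 56.6% of its UMIs, and without the highest 4% the levels were 125 CPM in CR and 131 CPM in obese.

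Few genes of lipid handling, lysosomes and energy were far from 0. Of 17 lipid-associated genes measured, 1 was past 2-fold, Spp1, and the median was -0.068. Trem2 (-0.049), Lpl (-0.20), Cd36 (-0.18), Cd9 (-0.36) and Plin2 (0.22) were all within 0.5 of 0. None (0) of 21 lysosomal genes, 10 Fc receptor genes, 34 genes of oxidative phosphorylation and 9 glycolytic genes was past 2-fold, a count that says little where 1.29% of all genes were higher and 0.282% lower. The list medians were 0.067, 0.017, 0.075 and 0.25 in that order. Glycolytic genes had a positive ratio in 8 of 9 cases, highest for Pgk1 (0.81), Pkm (0.60) and Eno1 (0.50), and Gapdh was at -0.15. Ratios were also positive for 14 of 21 lysosomal, 6 of 10 Fc receptor and 27 of 34 oxidative phosphorylation genes. The share of all genes with a positive ratio was not counted, and their median was itself positive at 0.076. The cholesterol exporters Abca1 (0.12) and Abcg1 (-0.074) and the phospholipid transfer protein Pltp (-0.48) were in the same range. Of 12 genes of sterol synthesis and the LDL receptor, 1 was measured well enough, Insig1, at 55.3 CPM in CR and 26.4 CPM in obese (0.94). C1qa (-0.19), C1qb (-0.16) and C1qc (-0.21) were selected on and are given as description, and the complement gene Cfp, properdin, had a ratio of 0.074. Of 14 tissue-resident genes, Ltc4s alone was past 2-fold, with Folr2 at -0.076, Gas6 at 0.091 and Igf1 at -0.29.

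**Figure D5:**
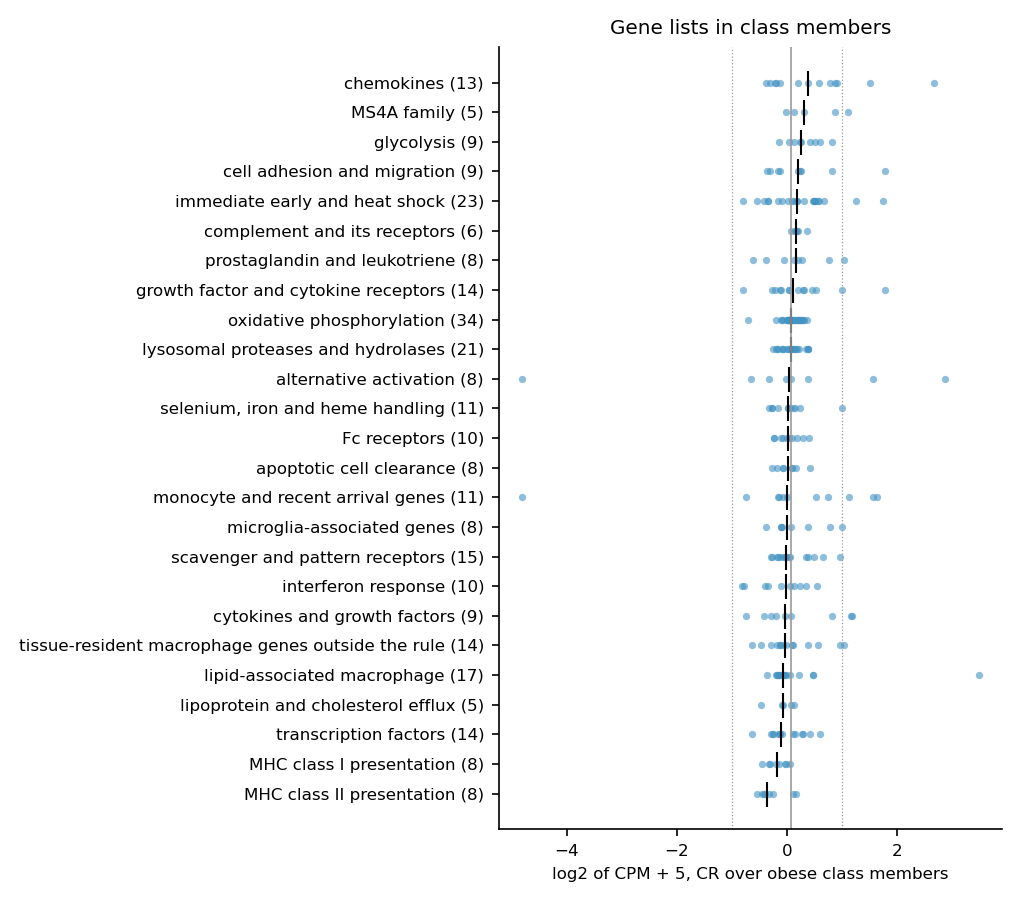
Log2 ratios of CR over obese members (x axis) for each gene of 25 lists with at least 5 genes measured (number in brackets), with the list median as a black tick. The grey line is the median of all genes at 0.076 and dotted lines mark 2-fold; chemokines stand highest and MHC class II lowest by median.

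Transcripts of connective tissue differed between the libraries. Fibroblast markers summed to 196 CPM in CR members and 78.9 CPM in obese members, with all 5 detected in both. Dcn, decorin, had UMIs in 53.2% of CR and 8.52% of obese members and a ratio of 1.18. One obese member held 46.8% of the obese Dcn UMIs, and without the highest 4% Dcn was at 90.9 CPM in CR and 6.29 CPM in obese (3.09). Igfbp7, a secreted protein of vessels and stroma, had UMIs in 29.0% and 5.86%. T cells carried these transcripts too, with Dcn at 383 CPM in CR and 324 CPM in obese. Fibroblast markers reached 2 UMIs in 37.1% of CR and 3.06% of obese members, and in 20.5% of CR and 2.58% of obese T cells. The part of free RNA in these values was not tested. Endothelial markers summed to 86.3 CPM in CR and 15.9 CPM in obese members. The haemoglobin level of obese members rested largely on a single cell. Hbb-bs was at 245 CPM in CR and 859 CPM in obese (-1.79) and was found in 80.6% of CR and 82.0% of obese members, but 1 obese member held 70.7% of it, and without the highest 4% the ratio was -0.031. Members held few markers of lymphocytes. T cell markers summed to 28.8 CPM in CR and 41.8 CPM in obese members, against 2852 and 2500 CPM in T cells, and the NK cell gene Ncr1 was at 0 in CR members.

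The same ratios were taken in other MØs of these libraries. Of the 32 genes higher in CR members, 28 were measured in Apoe-lower cells, where 26 had a positive ratio and 12 passed 2-fold. Of the 7 lower genes, 6 were measured there, 5 had a negative ratio and all 5 of them passed 2-fold. In lipid-associated MØs 13 of 18 measured higher genes had a positive ratio and 6 passed 2-fold, and of 4 lower genes 3 had a negative ratio and 0 passed. In Lyve1-bearing cells 16 of 22 higher genes had a positive ratio and 9 passed, and 6 of 6 lower genes had a negative ratio and 3 passed. The share of all genes with a positive ratio or past 2-fold in these other sets was not counted. Without it, the counts do not show more overlap than any genes would have. These sets also share their libraries, so the overlap is no independent evidence. Ccl4 was at 1415 CPM in CR and 468 CPM in obese Apoe-lower cells, and Tnf at 99.5 and 75.6 CPM. In Lyve1-bearing cells Ccl4 was at 843 CPM in CR and 728 CPM in obese, and Wfdc17 at 5391 and 5638 CPM. Whether any of these differences was larger in members than elsewhere was not tested.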

How the data were processed

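Viable CD45+ VAT cells were loaded on the 10x Chromium instrument, 1 library for CR and 1 for obese. The authors aligned reads to mm10 and counted UMIs with Cell Ranger 2.2, and the deposited matrices hold these raw UMI counts per gene and barcode for 27998 genes. Members were found by the limits given above. Members, gene lists, comparisons and most alternatives were chosen with earlier results of these data known. T cells were taken as cells with at least 2 UMIs of Cd3d, Cd3e and Cd3g and C1q under its limit, a rule set after the files were opened, as were all comparison sets other than Apoe-lower cells. Counts were summed over the cells of a set and library, scaled to CPM and compared as log2 ratios with 5 CPM added, for genes with at least 20 UMIs and 50 CPM. Intervals were exact 95% binomial, Poisson or conditional. Shares of cells with a UMI were taken after thinning to 2000 UMIs (seed 1), which left out 3 of 124 CR members and 0 of 751 obese members. No doublet caller was run. Named genes were those of the limits and label, the 12 highest and 12 lowest ratios of each of the CR and Apoe-lower comparisons once gene models and the genes of ribosomal proteins, mitochondria, haemoglobin and immunoglobulin were set aside, the 4 largest ratios of each list and other list members. Genes named against lipid-associated and Lyve1-bearing MØs outside these were chosen after their values were seen. Apoc2 and Itgam were left out of the lists because 2 identifiers share each symbol, and the listed names Crry, Ifi211, Clec7a, Jaml, Trac and Trbc2 were not matched. Sequences are from RefSeq on GRCm38.p6. Python 3.11.15, numpy 2.4.6, scipy 1.17.1, pandas 2.3.3, matplotlib 3.10.9 and edgeR 4.0.16 (TMM factors only) were used, and the ratios, intervals and thinning were tested on simulated data.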

Additional observations from a re-analysis of the deposited data

Results flagged for a closer look

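Cells that met every limit but the mitochondrial one were left out of all comparisons. They were 23.9% of such cells in CR (95% interval 17.6 to 31.2) and 4.09% in obese (2.81 to 5.72), with medians of 2702 UMIs in CR and 3322.5 UMIs in obese. In them Spp1 was at 101.1 CPM in CR and 342 CPM in obese, and Retnla at 229.7 CPM in CR and 2263 CPM in obese.

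For 4 genes the ratio of CR over obese had opposite signs in members and in another set, and none of these differences was tested. Retnla had a ratio of -4.82 in members and 2.33 in lipid-associated MØs. There, 1 of the 36 CR cells held 98.0% of its UMIs, and without the highest cell of each library it was at 42.4 CPM in CR and 187 CPM in obese. Slpi had a ratio of -3.05 in members and 3.14 in Fcgr4-high MØs, where 1 CR cell held 88.8% of its UMIs. Hmox1 had a ratio of 1.01 in members and -1.62 in Lyve1-bearing MØs, with 204 CPM in CR and 639 CPM in obese. Hspa1a had a ratio of 1.75 in members and -1.26 in Lyve1-bearing MØs, on 16 UMIs in CR and 169 in obese.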

How the results depend on the processing

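No paired analysis was possible because each group had 1 library. The share of members stayed lower in CR under each of the 9 alternatives for shares. With Apoe at 0.8% or more the obese share was 16.8%, and with 2% or more the shares were 2.69% in CR and 9.87% in obese. With Gpnmb, Mmp12 and Atp6v0d2 under 0.04% the obese share was 11.3%. With Lyve1, Cbr2 and Fcna at 0 the shares were 2.95% in CR and 10.2% in obese. Without members that carried markers of other cells they were 1.76% and 11.1%, and with the limits applied after thinning the obese share was 16.0%.

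The genes 2-fold higher and lower in CR (32 and 7) were counted anew under each alternative. There were 60 and 21 without members with other markers, and 71 and 32 in thinned cells. TMM factors gave 19 and 11, and every gene of at least 1 UMI gave 157 and 53. These totals do not tell how many of the 32 and 7 remained. With 20 CPM added 17 were higher, and with Apoe at 2% or more 15 were lower. Against Apoe-lower cells, 36 genes were higher and 31 lower (20 and 14 before) with every gene of at least 1 UMI, 7 were lower with C1q at 0.4% or more, and 9 were lower with 20 CPM added. The cause of these shifts was not tested, beyond more genes being compared at 1 UMI.

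Hmox1 turned to -0.10 with Gpnmb, Mmp12 and Atp6v0d2 under 0.04%, to -0.094 with Lyve1, Cbr2 and Fcna at 0, to -0.048 in thinned cells and to -0.064 without the 4% of members highest for each gene. That last setting also turned Slpi to 0.76, Hba-a1 to 0.50 and the median of the erythroid markers to 0.23. Retnla (-7.11 to -3.31), Spp1 (2.10 to 4.10), Arg1 (2.16 to 3.31), Ccl12 (1.30 to 3.70), Ccl4 (1.07 to 1.74) and Wfdc17 (1.08 to 1.33) stayed past 2-fold under all 17 alternatives. For Arg1, leaving out the highest 4% removed every obese UMI, so that alternative was no check. With 124 members and 868619 UMIs in CR, low genes rest on few UMIs, and no value has a replicate.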
